A study of Mus musculus with 18 samples.

Results

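Transcripts of MHC class II antigen presentation and of the B lineage were followed through 18 RNA-seq libraries of sorted mouse T-lineage cells. The set holds 9 of the 43280 genes in the count table, taken by symbol: Cd74, H2-Aa, H2-Ab1, H2-Eb1, Ciita, Cd79a, Cd79b, Cd86 and Pou2af1. The iRTE group (n = 5) held CD8+ T cells differentiated from the induced pluripotent stem cells that the labels name Pmel iPSC. The abbreviation is not spelled out, and by elimination these are the cells that the design text assigns to a 3D thymic culture, although the growth protocol of every sample names OP9-DL1. The Artificial CD8 group (n = 5) held CD8+ T cells and the CD4+CD8+ group (n = 3) double-positive T cells, both made from the same stem cells on OP9-DL1, a stromal line that presents a Notch ligand. The splenic CD8 group (n = 5) held naive CD8+ T cells taken directly from the spleens of transgenic mice. No treatment is listed for any sample, and sorting used CD45, CD4, CD8 and TCRab, and a dump gate discarded cells bearing CD11c, NK1.1 or TCRgd. The age and full genotype of the mice, the number of stem cell clones and any pooling are not given in the labels, and because the labels do not say whether each replicate is its own culture or mouse, the p-values given here reflect the spread among libraries, which may be technical.

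MHC class II molecules carry peptides from the endosomal pathway to CD4+ T cells. H2-Aa and H2-Ab1 encode the alpha and beta chains of I-A, H2-Eb1 encodes the beta chain of I-E, and Cd74 encodes the invariant chain that occupies the groove until H2-DM exchanges it for peptide. Ciita is the coactivator on which class II genes depend; it binds no DNA itself and is recruited by factors seated on the X and Y boxes of their promoters. Cd79a and Cd79b encode the signalling pair of the B-cell receptor, Pou2af1 (OBF-1) a coactivator of the octamer factors Pou2f1 and Pou2f2, and Cd86 a costimulatory ligand of Cd28 and Ctla4. Class II, Cd79 and Cd86 are best known from B cells, dendritic cells and macrophages, and conventional mouse T cells are generally regarded as class II negative.

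The promoter stretches that hold the X and Y cores are shown for H2-Aa and H2-Eb1. Of the members with a searched window, they are those that hold both cores. Both come from the RefSeq promoter table on GRCm38.p6, in the 250 bases before the annotated start. The H2-Aa stretch lies at chr17:34287852-34287919 on the minus strand and the H2-Eb1 stretch at chr17:34305761-34305827 on the plus strand. Capitals mark the X core GCAAC and the Y core CTGATTGG.
H2-Aa: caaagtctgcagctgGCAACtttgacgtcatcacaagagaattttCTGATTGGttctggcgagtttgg
H2-Eb1: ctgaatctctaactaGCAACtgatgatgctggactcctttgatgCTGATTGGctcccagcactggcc

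The X core began 81 bases and the Y core 51 bases before the start of H2-Aa, against 91 and 62 bases for H2-Eb1. Searched on both strands, the Y core was present in 3.83% and the X core in 29.9% of the 32851 promoter windows of the same length. An X core followed within 40 bases by a Y core on the same strand was present in 44 windows, which is 0.134%. The 2 cores share no bases in either stretch. Besides H2-Aa and H2-Eb1, the pair was found in H2-Oa and H2-Eb2, and it was not found in the windows of Cd79a and Pou2af1. No window of Cd74, H2-Ab1, Ciita, Cd79b or Cd86 was searched, so whether they hold the pair is not known here. These matches are descriptions of letters and not of factor binding.

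Total counts per library ran at 11691286 to 16533373 in iRTE, 15953388 to 19305751 in Artificial CD8, 11747367 to 12208210 in CD4+CD8+ and 11132768 to 17671852 in splenic CD8. Levels are given as CPM, which scales each count by the total of its library, and 3 counts, the floor used for a gene with no count, equal 0.155 to 0.269 CPM. CPM values are not corrected for gene length, so they are compared between groups and not between genes. Differences are log2 fold changes from the fit over 13922 genes, ± the standard error of log2 CPM, with a Benjamini-Hochberg adjusted p of edgeR's quasi-likelihood test under 0.05 as the threshold. The label genes followed the labels: Cd4 had no count in any of the 5 iRTE libraries, 1.92 to 9.30 CPM in Artificial CD8, 152 to 266 CPM in CD4+CD8+ and at most 0.170 CPM in splenic CD8. Library iRTE 4 stood apart in the iRTE group, with Cd8a at 443 CPM against 1117 to 1338 CPM in the other 4 and no count for 6 of the 9 members. The descriptions of iRTE 1 to 3 are worded differently from those of iRTE 4 and 5, so the iRTE results are also given for these subsets.

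Set against splenic CD8 cells, most members were lower in every cultured group, and Pou2af1 was higher. In iRTE against splenic CD8, 1 of 9 members rose and 7 fell, where 29.2% of all tested genes rose and 29.0% fell. In Artificial CD8 against splenic CD8, 1 rose and 7 fell, against 30.3% and 30.2% of all tested genes. In CD4+CD8+ against splenic CD8, 1 rose and 7 fell, against 28.9% and 27.4%. The member that rose was Pou2af1 and the member that did not pass was Ciita in all 3. The 3 comparisons share their splenic libraries and are therefore not independent. The median log2 difference of the 9 members was -2.85 for iRTE, -5.69 for Artificial CD8 and -6.26 for CD4+CD8+, beside -0.05, -0.03 and -0.03 over all tested genes. With the genes of a group with no count held at their bounds, the medians were -4.97 for Artificial CD8 and -4.36 for CD4+CD8+. H2-Aa, H2-Ab1 and H2-Eb1 passed the filter on low counts only through the splenic libraries, which fixes their direction, so these counts and medians are descriptions and the differences of these 3 genes from splenic CD8 are given below with no test. Of the other 6 members, 1 rose and 4 fell in each of the 3 comparisons, and Ciita did not pass.

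**Figure D1:**
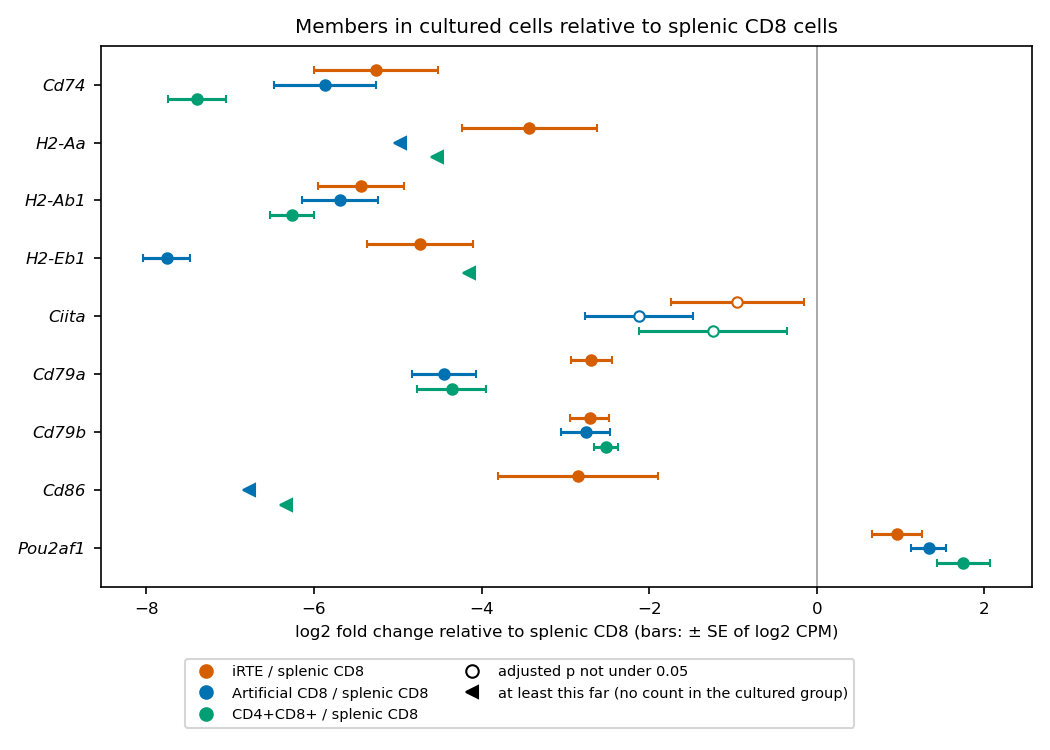
The log2 fold change of each member relative to splenic CD8 cells is shown on the horizontal axis for iRTE (orange), Artificial CD8 (blue) and CD4+CD8+ (green) cells, with bars for ± the standard error of log2 CPM; open circles did not pass the test, and triangles are bounds for groups with no count. Pou2af1 lies right of 0 in all 3 groups, Ciita is open in all 3, and the other members lie left of 0; the Artificial CD8 circle of H2-Eb1 rests on 1 count, and the values of H2-Aa, H2-Ab1 and H2-Eb1 are descriptions.

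Differences among the cultured groups were fewer. In iRTE against Artificial CD8, 3 members rose (Cd86, H2-Aa and Cd79a) and 0 fell, where 20.0% of all tested genes rose and 18.7% fell. In iRTE against CD4+CD8+, 1 member rose (Cd86) and 0 fell, where 11.8% rose and 12.3% fell. In Artificial CD8 against CD4+CD8+, 0 members were called in either direction by edgeR, by DESeq2 or by limma-voom, and 0 had an unadjusted edgeR p under 0.05, where 6.54% of all tested genes rose and 8.12% fell. In that comparison H2-Aa and Cd86 had no count in any of the 8 libraries and H2-Eb1 had 1 count in all, so no difference could be detected for these 3 genes at this depth. None of the members called among the cultured groups had fully separated libraries. Scaling by library size alone moved the median of all genes by -0.12 for iRTE against Artificial CD8, -0.18 for iRTE against splenic CD8 and -0.10 for iRTE against CD4+CD8+ on the log2 scale. The share of called genes that were higher in iRTE was then 39.4% and not 51.8% against Artificial CD8, and 36.9% and not 48.9% against CD4+CD8+.

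Cd74, the invariant chain, was readily detected in every splenic library and lay near the floor in many cultured ones. Its level was 0.855, 1.21, 0.157, 0 and 1.41 CPM in iRTE 1 to 5 and 0.309, 1.07, 0.301, 0.881 and 0 CPM in Artificial CD8 1 to 5. It was 0.255, 0.0845 and 0.164 CPM in the 3 CD4+CD8+ libraries, at most 3 counts each, against 20.5, 40.6, 21.0, 27.6 and 47.2 CPM in splenic CD8 1 to 5. Every splenic library lay above every cultured library, and the 3 cultured groups overlapped. The difference from splenic CD8 was -5.26 ± 0.74 in iRTE (edgeR adjusted p = 4.13e-06). In Artificial CD8 it was -5.87 ± 0.60 (edgeR adjusted p = 9.95e-07), and in CD4+CD8+ it was -7.40 ± 0.34 (edgeR adjusted p = 8.92e-06). The iRTE and Artificial CD8 groups did not differ past the threshold (0.61 ± 0.89, edgeR adjusted p = 0.538). Against CD4+CD8+ the iRTE difference was 2.14 ± 0.74 (edgeR adjusted p = 0.165) and passed without iRTE 4 (2.50, edgeR adjusted p = 0.0484).

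H2-Aa was detected in iRTE and in no other cultured group. It had 0.684, 1.54, 0, 0 and 0.192 CPM in iRTE 1 to 5, which is 8, 19, 0, 0 and 3 counts. It had no count in the 5 Artificial CD8 and the 3 CD4+CD8+ libraries, and 3.00, 8.11, 4.01, 4.38 and 9.97 CPM in splenic CD8 1 to 5. The iRTE signal thus came from 3 libraries, mostly from iRTE 1 and 2, while iRTE 3 and 4 were at 0 as in the other cultures. H2-Aa was at least 2.57-fold higher in iRTE than in Artificial CD8 (edgeR adjusted p = 0.00834), but limma-voom did not call it (adjusted p = 0.0628). That bound rested largely on iRTE 2 and was 1.16-fold without it (edgeR adjusted p = 0.0249). Against CD4+CD8+ the bound was 1.89-fold, with no bound left without iRTE 2, and the test was not passed (edgeR adjusted p = 0.0607), but it was passed without iRTE 3 (edgeR adjusted p = 0.0361), without iRTE 4 (edgeR adjusted p = 0.0221), with iRTE 1 to 3 alone (edgeR adjusted p = 0.0123) and with DESeq2 (adjusted p = 0.0107). The difference from splenic CD8 was -3.43 ± 0.81 in iRTE, and -4.60 without iRTE 2. H2-Aa was at least 31.3-fold lower in Artificial CD8 and at least 23.1-fold lower in CD4+CD8+ than in splenic CD8.

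H2-Ab1, the partner chain of H2-Aa, had counts in all 3 cultured groups. Its level was 0.428, 0.162, 0, 0 and 0.383 CPM in iRTE 1 to 5 and 0, 0.439, 0.0601, 0.0518 and 0.314 CPM in Artificial CD8 1 to 5. It was 0.0851, 0.0845 and 0.164 CPM in CD4+CD8+ 1 to 3, against 6.34, 10.6, 6.54, 10.6 and 14.4 CPM in splenic CD8 1 to 5. No cultured library exceeded 7 counts, and the cultured groups overlapped. In iRTE 3 and 4 H2-Ab1 was at 0, as H2-Aa was. The difference from splenic CD8 was -5.43 ± 0.51 in iRTE. It was -5.69 ± 0.45 in Artificial CD8, or -6.29 without Artificial CD8 2, and -6.26 ± 0.26 in CD4+CD8+. Whether the H2-Aa and H2-Ab1 differences of iRTE against Artificial CD8 differ from each other was not tested.

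H2-Eb1 rested on single libraries in culture. Of the iRTE libraries, iRTE 1 had 9 counts (0.770 CPM) and the other 4 had none. Of the Artificial CD8 libraries, Artificial CD8 1 had 1 count (0.0618 CPM) and the other 4 had none, and CD4+CD8+ had none. The splenic CD8 libraries had 3.28, 7.74, 2.82, 3.43 and 5.48 CPM. The difference of iRTE from splenic CD8 was -4.73 ± 0.63; without iRTE 1 no iRTE library held a count, and the fitted difference, which then depends on the prior count, was -9.01. The ratio of Artificial CD8 to splenic CD8 was 0.00260, with a 95% counting interval of 6.57e-05 to 0.0146. The iRTE to Artificial CD8 ratio was 11.4, with an interval of 1.58 to 499 (edgeR adjusted p = 0.0967), and passed with iRTE 1 to 3 alone (edgeR adjusted p = 0.0213). H2-Eb1 was at least 17.8-fold lower in CD4+CD8+ than in splenic CD8.

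**Figure D2:**
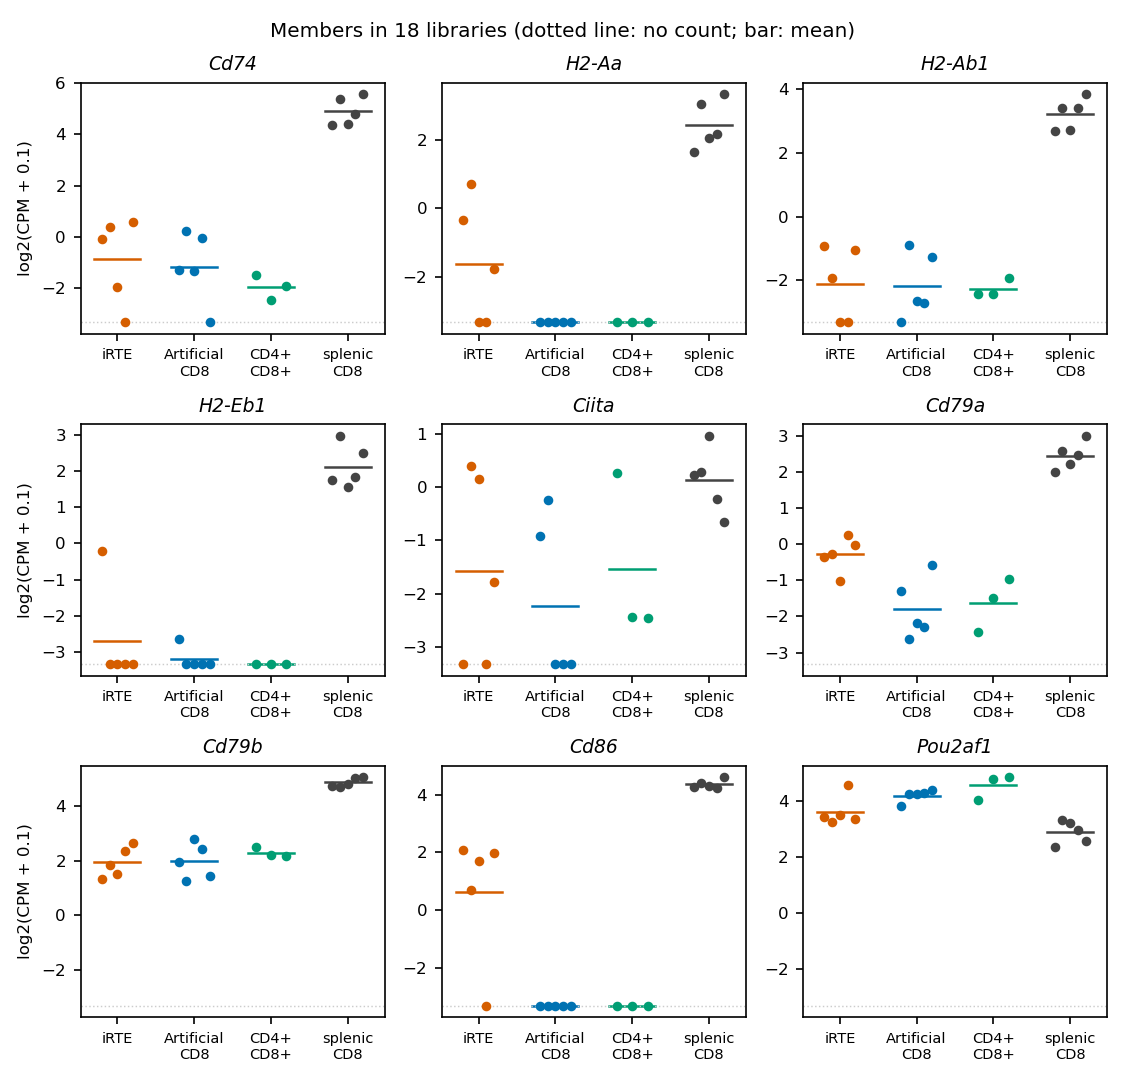
Each point is 1 library, drawn as log2(CPM + 0.1) for each of the 9 members in iRTE, Artificial CD8, CD4+CD8+ and splenic CD8 cells; the bar is the group mean on that scale and the dotted line marks libraries with no count. The splenic points lie above all cultured points for Cd74, H2-Aa, H2-Ab1, H2-Eb1, Cd79a, Cd79b and Cd86, the groups overlap for Ciita, and the splenic points are lowest for Pou2af1 except where they meet iRTE.

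Ciita, the class II coactivator, was low in every group and did not separate them. It had 0, 1.21, 1.02, 0 and 0.192 CPM in iRTE 1 to 5 and 0.432, 0.752, 0, 0 and 0 CPM in Artificial CD8 1 to 5. It had 1.11, 0.0845 and 0.0819 CPM in CD4+CD8+ 1 to 3 and 1.08, 1.13, 1.86, 0.761 and 0.539 CPM in splenic CD8 1 to 5. Single cultured libraries reached splenic levels beside others of the same group with no count, so the groups overlapped. The difference from splenic CD8 was -0.95 ± 0.79 in iRTE (edgeR adjusted p = 0.478), or -1.62 without iRTE 2 (edgeR adjusted p = 0.273). It was -1.24 ± 0.88 in CD4+CD8+ (edgeR adjusted p = 0.44), or -3.50 without CD4+CD8+ 1 (edgeR adjusted p = 0.141). In Artificial CD8 it was -2.12 ± 0.64 (edgeR adjusted p = 0.118), and this comparison passed with limma-voom (-3.47, adjusted p = 0.0081), in a fit of these groups alone (-2.15, edgeR adjusted p = 0.0204; -2.12, edgeR adjusted p = 0.0434 with no filter) and without Artificial CD8 2 (-3.22, edgeR adjusted p = 0.0423). Beside H2-Aa in the iRTE libraries, iRTE 2 was the highest for both genes, iRTE 5 had 3 counts of each and iRTE 4 none of either, while iRTE 1 had 8 counts of H2-Aa and none of Ciita, and iRTE 3 had 13 counts of Ciita and none of H2-Aa. In the mouse annotation Ciita overlaps Dexi on the opposite strand, and since the strand setting of the counting is not given, reads of these genes cannot be told apart.

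Cd86, the costimulatory ligand, was detected in iRTE and in no other cultured group. It had 4.11, 1.54, 3.13, 0 and 3.83 CPM in iRTE 1 to 5, which is 48, 19, 40, 0 and 60 counts. It had no count in any Artificial CD8 or CD4+CD8+ library, and 19.2, 21.1, 19.7, 18.9 and 24.3 CPM in splenic CD8 1 to 5. The 4 iRTE libraries with counts thus lay between the other cultures and splenic CD8, and iRTE 4 was like the other cultures. Cd86 was at least 13.4-fold higher in iRTE than in Artificial CD8 (edgeR adjusted p = 0.000191). It was at least 9.87-fold higher in iRTE than in CD4+CD8+ (edgeR adjusted p = 0.00362; limma-voom adjusted p = 0.0884). Without iRTE 4 the edgeR adjusted p was 1.19e-07 against Artificial CD8 and 4.21e-06 against CD4+CD8+. With iRTE 1 to 3 alone it was 1.54e-07 and 4.67e-06, and with iRTE 4 and 5 alone it was 0.0033 and 0.0221. Against splenic CD8, Cd86 fell by 2.85 ± 0.96 in iRTE (edgeR adjusted p = 0.00243). It was at least 110-fold lower in Artificial CD8 (edgeR adjusted p = 3.27e-06) and at least 80.9-fold lower in CD4+CD8+ (edgeR adjusted p = 6.61e-05) than in splenic CD8.

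The other ligand and the receptors of Cd86 ran differently. Cd80, the second ligand of Cd28 and Ctla4, had a median of 1.86 CPM in iRTE (0.599 to 2.56), 9.62 CPM in Artificial CD8 (7.52 to 11.5), 0.901 CPM in CD4+CD8+ (0.766 to 2.11) and 0.0898 CPM in splenic CD8 (0 to 0.317). Cd80 was thus highest in Artificial CD8, the group in which Cd86 had no count, and near the floor in splenic CD8, the group in which Cd86 was highest. The log2 difference of iRTE was -2.40 ± 0.40 from Artificial CD8 (edgeR adjusted p = 0.000757) and 3.80 ± 0.50 from splenic CD8 (edgeR adjusted p = 4.43e-05). Ctla4, the inhibitory receptor, ran at 134 to 185 CPM in iRTE, 110 to 132 CPM in Artificial CD8, 54.2 to 63.5 CPM in CD4+CD8+ and 2.89 to 4.13 CPM in splenic CD8, with no overlap between neighbouring groups. Its difference from splenic CD8 was 5.54 ± 0.13 in iRTE (edgeR adjusted p = 7.27e-16), 5.14 ± 0.10 in Artificial CD8 (1.71e-15) and 4.06 ± 0.11 in CD4+CD8+ (1.13e-13). Cd28, the activating receptor, was lower in iRTE (27.5 to 42.1 CPM) than in Artificial CD8 (52.7 to 64.2 CPM), with a difference of -0.84 ± 0.10 (edgeR adjusted p = 2.48e-05). In CD4+CD8+ it ran at 48.0 to 62.1 CPM and in splenic CD8 at 32.5 to 44.2 CPM.

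Of the 4 tested genes in the list of costimulatory ligands and receptors, 1 rose and 2 fell in iRTE against Artificial CD8. Against splenic CD8, 2 rose and 0 fell in iRTE, 4 rose and 0 fell in Artificial CD8, and 3 rose and 0 fell in CD4+CD8+. Against CD4+CD8+, 1 rose and 1 fell in iRTE, and 2 rose and 0 fell in Artificial CD8. Of all tested genes, 20.0% rose and 18.7% fell in iRTE against Artificial CD8. Against splenic CD8 the shares were 29.2% and 29.0% in iRTE, 30.3% and 30.2% in Artificial CD8, and 28.9% and 27.4% in CD4+CD8+. Against CD4+CD8+ they were 11.8% and 12.3% in iRTE, and 6.54% and 8.12% in Artificial CD8. The list median against splenic CD8 was 2.03 in iRTE, 3.02 in Artificial CD8 and 1.95 in CD4+CD8+. Cd40, a costimulatory receptor of B cells, was not tested because it had at most 0.509 CPM in any library.

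Cd79a and Cd79b encode proteins that act as a heterodimer in B cells, and both lay lower in every cultured library than in any splenic one. Cd79a had 0.684, 0.728, 0.392, 1.09 and 0.894 CPM in iRTE 1 to 5 and 0.309, 0.0627, 0.120, 0.104 and 0.575 CPM in Artificial CD8 1 to 5. It had 0.0851, 0.254 and 0.410 CPM in CD4+CD8+ 1 to 3 and 3.90, 5.93, 4.61, 5.46 and 7.99 CPM in splenic CD8 1 to 5. All iRTE libraries except iRTE 3 lay above every Artificial CD8 library, and all splenic libraries lay above every cultured library. Cd79a rose in iRTE against Artificial CD8 by 1.76 ± 0.38 (edgeR adjusted p = 0.0109), by 2.41 without Artificial CD8 5. In a fit of these groups alone with no filter on low counts it did not pass (1.75, edgeR adjusted p = 0.122), and against CD4+CD8+ the difference was 1.67 ± 0.42 (edgeR adjusted p = 0.0662) and passed without iRTE 3 (1.82, edgeR adjusted p = 0.0489). Against splenic CD8 it fell by 2.69 ± 0.25 in iRTE (edgeR adjusted p = 9.65e-05). It fell by 4.45 ± 0.38 in Artificial CD8 (edgeR adjusted p = 7.06e-07; -5.10 without Artificial CD8 5) and by 4.36 ± 0.41 in CD4+CD8+ (edgeR adjusted p = 2.39e-05).

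Cd79b was detected in all 18 libraries. It had 2.39, 3.48, 2.74, 5.08 and 6.20 CPM in iRTE 1 to 5 and 3.77, 2.32, 6.86, 5.28 and 2.61 CPM in Artificial CD8 1 to 5. It had 5.62, 4.48 and 4.42 CPM in CD4+CD8+ 1 to 3 and 26.5, 26.1, 28.2, 32.5 and 33.3 CPM in splenic CD8 1 to 5. The cultured groups overlapped throughout and lay below every splenic library. The difference of iRTE from Artificial CD8 was 0.05 ± 0.36 (edgeR adjusted p = 0.92), and its sign turned under several settings, among them scaling by library size (-0.06). The difference from splenic CD8 was -2.71 ± 0.23 in iRTE (edgeR adjusted p = 3.81e-07), -2.76 ± 0.29 in Artificial CD8 (1.73e-07) and -2.52 ± 0.14 in CD4+CD8+ (9.11e-06). Whether the Cd79a and Cd79b differences of iRTE against Artificial CD8 differ from each other was not tested.

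Pou2af1 was the one member with its lowest level in splenic CD8. It had 10.5, 9.39, 11.1, 23.4 and 10.03 CPM in iRTE 1 to 5 and 14.0, 18.7, 18.6, 19.1 and 20.6 CPM in Artificial CD8 1 to 5. It had 16.1, 27.5 and 28.5 CPM in CD4+CD8+ 1 to 3 and 4.98, 9.91, 9.22, 7.68 and 5.75 CPM in splenic CD8 1 to 5. Ordered by mean, CD4+CD8+ (24.0 ± 6.89 CPM, SD, n = 3) stood above Artificial CD8 (18.2 ± 2.48, n = 5), iRTE (12.9 ± 5.91, n = 5) and splenic CD8 (7.51 ± 2.13, n = 5), and each neighbouring pair in this order overlapped, while Artificial CD8 and CD4+CD8+ lay wholly above splenic CD8. Pou2af1 rose against splenic CD8 by 0.96 ± 0.29 in iRTE (edgeR adjusted p = 0.00396), 1.34 ± 0.21 in Artificial CD8 (0.000204) and 1.75 ± 0.31 in CD4+CD8+ (5.05e-05). The difference of iRTE was -0.38 ± 0.25 from Artificial CD8 (edgeR adjusted p = 0.251) and -0.79 ± 0.34 from CD4+CD8+ (edgeR adjusted p = 0.0508). Leaving out iRTE 4 moved both past the threshold, at -0.69 (edgeR adjusted p = 0.015) and -1.10 (edgeR adjusted p = 0.00196). Without CD4+CD8+ 1 the difference from CD4+CD8+ was -1.01 (edgeR adjusted p = 0.0267), and it also passed with DESeq2, limma-voom, library size scaling and the 10 CPM filter (adjusted p = 0.0334 to 0.0436). With iRTE 1 to 3 alone they were -0.64 (edgeR adjusted p = 0.0296) and -1.05 (edgeR adjusted p = 0.00328), and with iRTE 4 and 5 alone -0.08 (edgeR adjusted p = 0.892) and -0.48 (edgeR adjusted p = 0.359).

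The octamer factors that Pou2af1 binds ran opposite to it against splenic CD8. Pou2f1 (Oct-1) had 9.58 to 22.6 CPM in iRTE, 26.9 to 40.8 CPM in Artificial CD8, 16.9 to 26.1 CPM in CD4+CD8+ and 41.2 to 50.1 CPM in splenic CD8. Its difference from splenic CD8 was -1.39 ± 0.19 in iRTE (edgeR adjusted p = 3.69e-06), -0.48 ± 0.11 in Artificial CD8 (0.0246) and -0.95 ± 0.21 in CD4+CD8+ (0.00101). Pou2f2 (Oct-2) had 1.64 to 4.60 CPM in iRTE, 0.622 to 1.88 CPM in Artificial CD8, 3.03 to 5.19 CPM in CD4+CD8+ and 8.66 to 9.71 CPM in splenic CD8. Its difference from splenic CD8 was -1.61 ± 0.23 in iRTE (edgeR adjusted p = 0.000312), -2.93 ± 0.26 in Artificial CD8 (5.31e-07) and -1.19 ± 0.24 in CD4+CD8+ (0.0123). Among the cultures Pou2f2 was lowest in Artificial CD8, with a level 1.33 ± 0.35 higher in iRTE (log2, edgeR adjusted p = 0.00377).

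**Figure D3:**
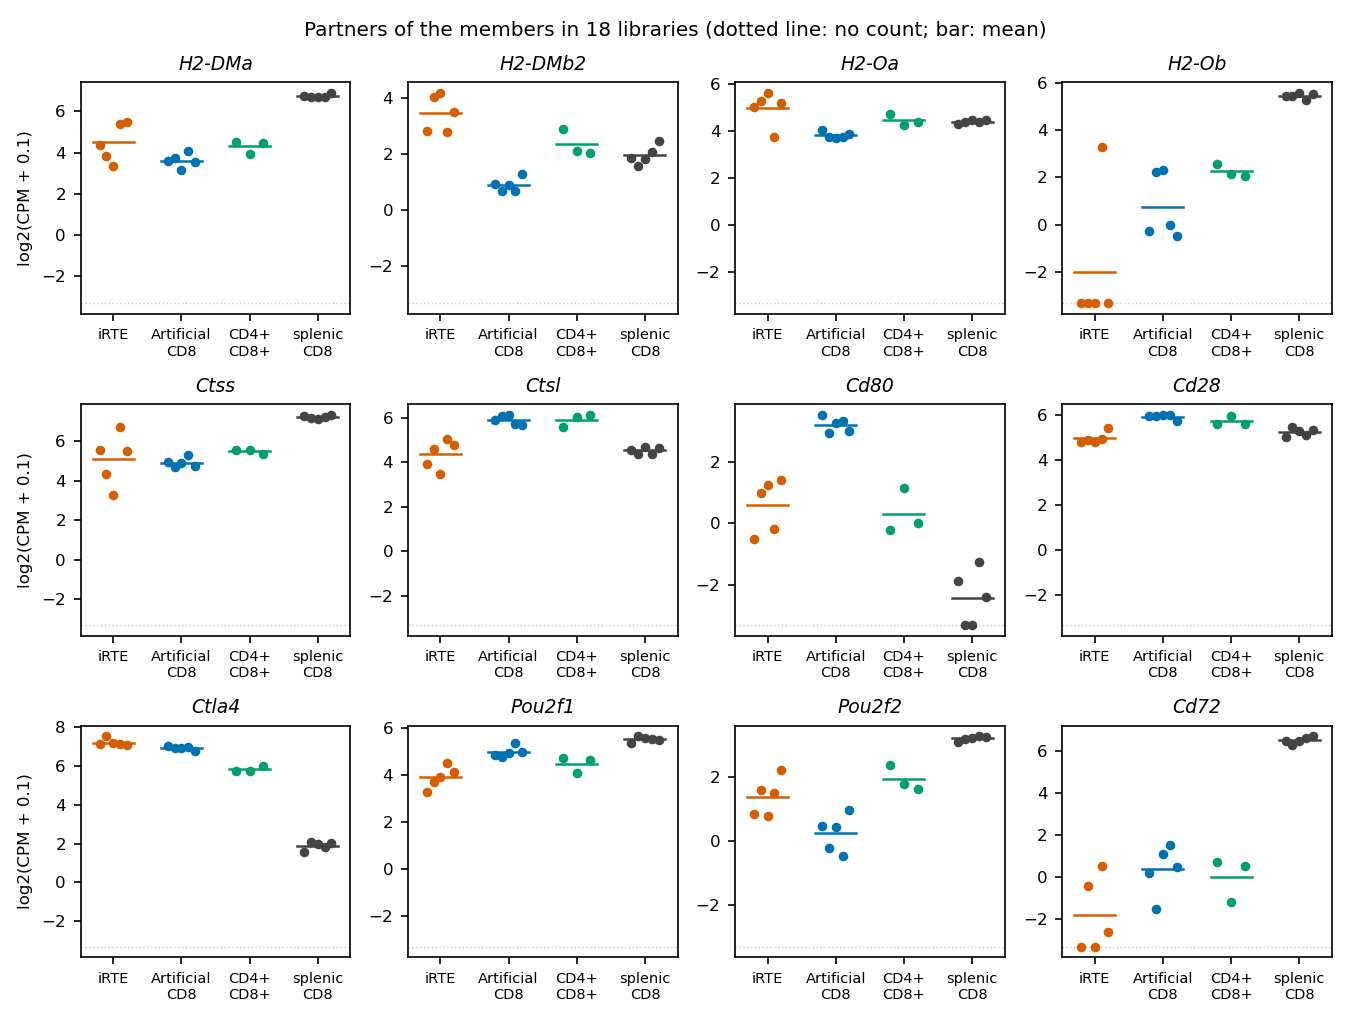
Each point is 1 library, drawn as log2(CPM + 0.1), for 12 genes that work with the members in iRTE, Artificial CD8, CD4+CD8+ and splenic CD8 cells; bars are group means and the dotted line marks no count. Cd80 and Ctla4 are lowest in splenic CD8; Pou2f1, Pou2f2, Cd72, H2-DMa, H2-Ob and Ctss are highest in splenic CD8; H2-Ob has no count in 4 of 5 iRTE libraries.

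Genes of class II peptide loading were called in both directions. Of the 9 tested, 2 rose and 3 fell in iRTE against splenic CD8, 3 rose and 5 fell in Artificial CD8, and 1 rose and 3 fell in CD4+CD8+. Of all tested genes, 29.2% rose and 29.0% fell in iRTE against splenic CD8. The shares were 30.3% and 30.2% in Artificial CD8, and 28.9% and 27.4% in CD4+CD8+. In iRTE 4 rose and 3 fell against Artificial CD8 and 1 rose and 1 fell against CD4+CD8+, and in Artificial CD8 1 rose and 1 fell against CD4+CD8+. Of all tested genes, 20.0% rose and 18.7% fell in iRTE against Artificial CD8. Against CD4+CD8+ the shares were 11.8% and 12.3% in iRTE, and 6.54% and 8.12% in Artificial CD8. The list medians against splenic CD8 were -0.30 in iRTE, -1.05 in Artificial CD8 and -0.17 in CD4+CD8+. H2-DMa, a chain of the peptide exchanger H2-DM, had 20.9, 14.3, 10.1, 41.5 and 45.5 CPM in iRTE 1 to 5 and a median of 12.0 CPM in Artificial CD8, 22.0 CPM in CD4+CD8+ and 104 CPM in splenic CD8. Its difference from splenic CD8 was -1.87 ± 0.39 in iRTE (edgeR adjusted p = 2.5e-05), -3.05 ± 0.15 in Artificial CD8 (8.42e-08) and -2.35 ± 0.19 in CD4+CD8+ (2.53e-05). It was thus well above the floor in the cultured cells, including iRTE 4, where the class II chains had no count.

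H2-DMb2, the other H2-DM chain, went the opposite way in iRTE. It had 6.71 to 17.9 CPM in iRTE, 1.502 to 2.35 CPM in Artificial CD8, 4.01 to 7.24 CPM in CD4+CD8+ and 2.85 to 5.39 CPM in splenic CD8. It rose in iRTE by 2.85 ± 0.32 against Artificial CD8 (edgeR adjusted p = 2.05e-06), 1.81 ± 0.34 against splenic CD8 (8.83e-05) and 1.30 ± 0.41 against CD4+CD8+ (0.0154). H2-DMb1 and H2-DMb2 are close paralogs, so the split of reads between them is uncertain. The protease Ctss, which trims the invariant chain, fell in all 3 cultures, with a difference from splenic CD8 of -1.56 ± 0.57 in iRTE (edgeR adjusted p = 0.00148), -2.26 ± 0.11 in Artificial CD8 (4.81e-05) and -1.68 ± 0.08 in CD4+CD8+ (0.00397). Ctsl, which trims it in thymic epithelium, differed by -1.33 ± 0.27 between iRTE and Artificial CD8 (edgeR adjusted p = 4.61e-05), and was 1.43 ± 0.11 higher in Artificial CD8 than in splenic CD8 (7.68e-06). H2-Oa, a chain of the H2-DM inhibitor H2-DO, rose in iRTE against Artificial CD8 by 1.40 ± 0.34 (edgeR adjusted p = 0.00014). Its partner H2-Ob, named after its values were seen, had no count in iRTE 1, 2, 3 and 5, 9.74 CPM in iRTE 4, 0.627 to 4.81 CPM in Artificial CD8, 4.10 to 5.79 CPM in CD4+CD8+ and 38.5 to 47.1 CPM in splenic CD8.

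The 9 class II transcription and turnover genes were counted in the same way. Against splenic CD8, 1 rose and 2 fell in iRTE, 2 rose and 1 fell in Artificial CD8, and 3 rose and 0 fell in CD4+CD8+. Of all tested genes, 29.2% rose and 29.0% fell in iRTE against splenic CD8. The shares were 30.3% and 30.2% in Artificial CD8, and 28.9% and 27.4% in CD4+CD8+. In iRTE 1 rose and 2 fell against Artificial CD8 and 0 rose and 2 fell against CD4+CD8+, and in Artificial CD8 0 rose and 1 fell against CD4+CD8+. Of all tested genes, 20.0% rose and 18.7% fell in iRTE against Artificial CD8. Against CD4+CD8+ the shares were 11.8% and 12.3% in iRTE, and 6.54% and 8.12% in Artificial CD8. The list medians against splenic CD8 were -0.04 in iRTE, -0.16 in Artificial CD8 and -0.06 in CD4+CD8+. Rfx5, which binds the X box, had 6.77 to 11.7 CPM in iRTE, 10.8 to 18.5 CPM in Artificial CD8, 9.19 to 15.7 CPM in CD4+CD8+ and 12.6 to 17.5 CPM in splenic CD8 and passed in none of the 6 comparisons. Rfxap, its partner, rose in iRTE against Artificial CD8 by 0.44 ± 0.08 (edgeR adjusted p = 0.00178), and Nfyb, a Y-box subunit, fell by 0.44 ± 0.10 (0.00464). Creb1, another X-box factor, differed in iRTE by -0.68 ± 0.23 from Artificial CD8 (edgeR adjusted p = 0.00908) and by -0.84 ± 0.20 from splenic CD8 (0.00112), and Nfya, a Y-box subunit, by -0.64 ± 0.15 from splenic CD8 (0.0215). March8, a ligase known to act on surface class II, was higher than in splenic CD8 by 4.17 ± 0.81 in iRTE (edgeR adjusted p = 0.000347), 5.34 ± 0.50 in Artificial CD8 (2.5e-05) and 5.13 ± 0.49 in CD4+CD8+ (8.64e-05).

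The list of B-cell receptor signalling and B-lineage factors split in both directions. Of 14 tested genes, 1 rose and 9 fell in iRTE against splenic CD8, 5 rose and 5 fell in Artificial CD8, and 3 rose and 5 fell in CD4+CD8+. In iRTE 1 rose and 9 fell against Artificial CD8 and 0 rose and 5 fell against CD4+CD8+, and in Artificial CD8 2 rose and 1 fell against CD4+CD8+. Of all tested genes, 20.0% rose and 18.7% fell in iRTE against Artificial CD8. Against splenic CD8 the shares were 29.2% and 29.0% in iRTE, 30.3% and 30.2% in Artificial CD8, and 28.9% and 27.4% in CD4+CD8+. Against CD4+CD8+ they were 11.8% and 12.3% in iRTE, and 6.54% and 8.12% in Artificial CD8. The list medians against splenic CD8 were -1.80 in iRTE (-1.64 with genes at their bounds), 0.58 in Artificial CD8 and 0.27 in CD4+CD8+. The kinase gene Lyn had 12.3 to 55.8 CPM in iRTE, 62.9 to 80.5 CPM in Artificial CD8, 45.1 to 55.2 CPM in CD4+CD8+ and 0.888 to 2.03 CPM in splenic CD8, where it was lowest. It rose against splenic CD8 by 4.53 ± 0.43 in iRTE (edgeR adjusted p = 4.88e-09), 5.68 ± 0.21 in Artificial CD8 (2.12e-10) and 5.15 ± 0.21 in CD4+CD8+ (2.14e-09). Ikzf3 (Aiolos), a lymphoid zinc-finger factor, differed in iRTE by -2.00 ± 0.35 from splenic CD8 (edgeR adjusted p = 1.51e-06) and by -1.77 ± 0.37 from CD4+CD8+ (8.6e-05). Cd72, a B-cell coreceptor, had 0 to 1.33 CPM in iRTE, 0.251 to 2.80 CPM in Artificial CD8, 0.338 to 1.53 CPM in CD4+CD8+ and 76.6 to 103 CPM in splenic CD8. Its difference from splenic CD8 was -7.51 ± 0.73 in iRTE (edgeR adjusted p = 1.92e-08), -5.85 ± 0.50 in Artificial CD8 (4.46e-08) and -6.33 ± 0.58 in CD4+CD8+ (1.04e-06).

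Blk and Spib were lower in every iRTE library than in any Artificial CD8 or CD4+CD8+ library, and Blk was highest in Artificial CD8. Blk, a B-lineage kinase, had 0 to 0.894 CPM in iRTE, 12.4 to 20.0 CPM in Artificial CD8, 2.11 to 4.43 CPM in CD4+CD8+ and 1.04 to 2.60 CPM in splenic CD8. The difference of iRTE from Artificial CD8 was -6.18 ± 0.58 (edgeR adjusted p = 1.31e-06). Spib, an Ets factor of B and plasmacytoid cells, had no count in iRTE, 1.44 to 3.83 CPM in Artificial CD8, 2.98 to 7.86 CPM in CD4+CD8+ and 0.127 to 1.17 CPM in splenic CD8. It was at least 8.45-fold lower in iRTE than in Artificial CD8 (edgeR adjusted p = 9.4e-06) and at least 23.6-fold lower than in CD4+CD8+ (edgeR adjusted p = 4.83e-06). Fcgr2b, the inhibitory Fc receptor of B cells, had 5.99 to 9.69 CPM in Artificial CD8. It had at most 1.21 CPM in iRTE, 0.655 CPM in CD4+CD8+ and 0.634 CPM in splenic CD8. Fcgr2b passed the filter on low counts only through the Artificial CD8 libraries, which fixes its direction. Its difference of Artificial CD8 from CD4+CD8+ (4.71 ± 0.74) is therefore a description with no test.

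Within splenic CD8, the members differed in how far they spread between libraries. The highest splenic library exceeded the lowest by 2.30 times for Cd74, 3.32 times for H2-Aa, 2.27 times for H2-Ab1 and 2.74 times for H2-Eb1. It did so by 3.45 times for Ciita, the widest of the 9, by 2.05 times for Cd79a and 1.99 times for Pou2af1, and by 1.28 times for Cd79b and 1.29 times for Cd86. Splenic CD8 2 and 5 held the highest levels of Cd74, H2-Aa, H2-Eb1 and Cd79a. The B-cell marker Ms4a1 (CD20) was also highest there, with 1.81, 3.08, 2.01, 2.22 and 4.49 CPM in splenic CD8 1 to 5. Other B-cell markers ranked the libraries differently. Cd22 was highest in splenic CD8 2 and 4 (3.23 and 2.09 CPM), with 1.53 CPM in splenic CD8 5. Cd72 was highest in splenic CD8 5 and 4 (103 and 98.1 CPM) and lowest in splenic CD8 2 (76.6 CPM). Cd72 (1.35 times), H2-DMa (1.15 times) and H2-Ob (1.22 times) varied as little as Cd79b. Cd3e and Cd8b1 varied by 1.06 and 1.08 times. A setting added after the data were seen kept splenic CD8 1, 3 and 4 alone. There 7 members passed against iRTE and 8 each against Artificial CD8 and CD4+CD8+. Of 13886 genes tested, 6814, 7236 and 6618 were called in these comparisons. The setting leaves out the libraries highest in several members, and the filter fixes the direction of H2-Aa, H2-Ab1 and H2-Eb1. These counts are therefore descriptions. The fitted H2-Aa difference of iRTE from splenic CD8 was then -2.76. In bulk RNA, fewer cells of a type and less RNA per cell cannot be told apart.

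**Figure D4:**
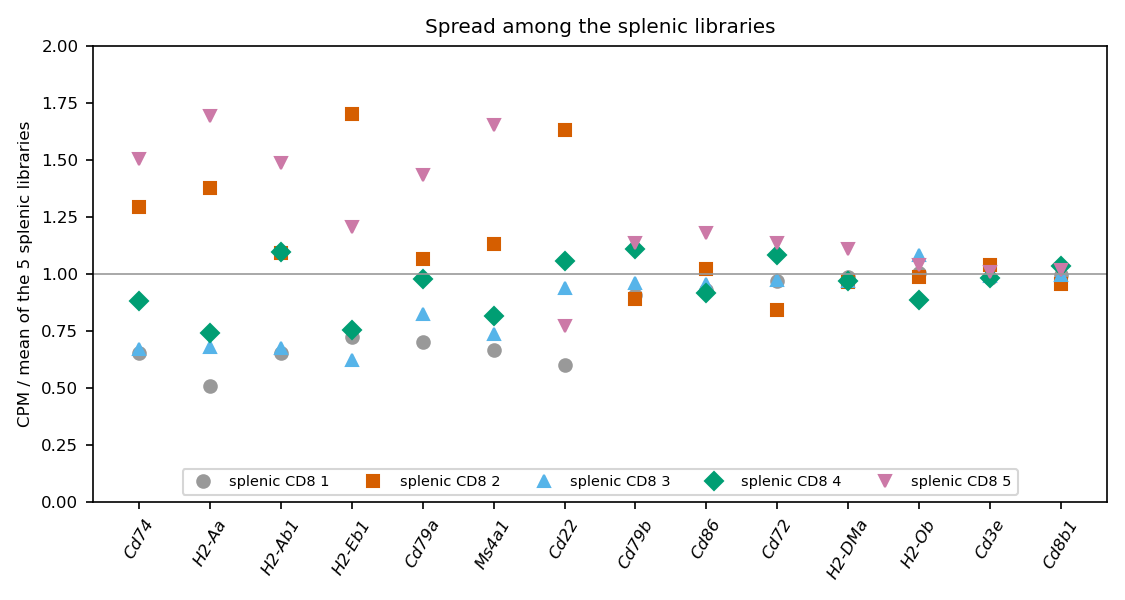
The level in each of the 5 splenic CD8 libraries is drawn relative to the mean of the 5 (vertical axis, CPM over mean CPM) for members, B-cell markers, partner genes and T-cell genes. H2-Aa ranges between 0.509 and 1.69 times the mean and Cd74 between 0.654 and 1.502 times, while Cd79b stays between 0.889 and 1.14 times and Cd3e between 0.980 and 1.04 times.

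Markers of other cells were read beside these results, and their part in the members' levels was not tested. Of 16 B-cell markers, 7 had a count in iRTE, 12 in Artificial CD8, 11 in CD4+CD8+ and 16 in splenic CD8. Their summed level was 1199 to 1641 CPM in iRTE, 799 to 924 CPM in Artificial CD8, 991 to 1165 CPM in CD4+CD8+ and 885 to 1063 CPM in splenic CD8, nearly all of it Ighm. Without Ighm, left out after its values were seen, the sums were 4.37 to 6.74 CPM in iRTE, 22.3 to 44.9 CPM in Artificial CD8, 17.7 to 19.7 CPM in CD4+CD8+ and 112 to 138 CPM in splenic CD8, with Cd72 the largest part in splenic CD8. The defining markers Ms4a1, Pax5 and Vpreb3 were at 0 in all 13 cultured libraries. In splenic CD8, Ms4a1 had 1.81 to 4.49 CPM, and what its lack of counts in culture means for the members was not tested. Pax5 had only 5 counts and Vpreb3 only 20 counts over all splenic libraries, so their lack of counts in culture says little. Other markers of the list did have counts in culture. Blk ran at 12.4 to 20.0 CPM in Artificial CD8, above its 1.04 to 2.60 CPM in splenic CD8. Igkc reached 14.04 CPM in Artificial CD8, with a median of 0.0601 CPM there. Of 12 tested B-cell markers, 1 rose and 10 fell in iRTE against splenic CD8, and 2 rose and 5 fell each in Artificial CD8 and CD4+CD8+. Of all tested genes, 29.2% rose and 29.0% fell in iRTE against splenic CD8. The shares were 30.3% and 30.2% in Artificial CD8, and 28.9% and 27.4% in CD4+CD8+. Early B-cell markers (3 genes) summed to 0.0783 to 1.51 CPM in iRTE, 0.4662 to 1.15 CPM in Artificial CD8, 1.88 to 2.38 CPM in CD4+CD8+ and 0.736 to 2.25 CPM in splenic CD8.

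Of 10 dendritic-cell markers, 5 had a count in iRTE, 7 in Artificial CD8, 4 in CD4+CD8+ and 9 in splenic CD8. Their sums were 2.06 to 6.42 CPM in iRTE, 0.627 to 2.83 CPM in Artificial CD8, 0.655 to 1.45 CPM in CD4+CD8+ and 5.55 to 8.53 CPM in splenic CD8. Xcr1, a receptor of cross-presenting dendritic cells, had 2.74, 2.75, 0.705, 0.544 and 2.49 CPM in iRTE 1 to 5. Cd74 was also highest in iRTE 1, 2 and 5. Clec9a, another marker of those cells, had no count in iRTE, and Batf3 had 1 count in all 5 iRTE libraries. Xcr1 was called higher in iRTE than in Artificial CD8 (3.22 ± 0.65, edgeR adjusted p = 0.00224). Itgax, which encodes the CD11c of the dump gate, had 3.08, 0, 0.783, 0.847 and 0 CPM in iRTE 1 to 5. It was highest in the one iRTE library with H2-Eb1 counts. It had no count in iRTE 2 and 5, where Cd74 was highest, and was present in iRTE 4, where the class II chains had none. Cd209a, Clec10a and Siglech were at 0 in all cultured libraries. The 14 myeloid markers summed to 80.2 to 127 CPM in iRTE, 97.4 to 110 CPM in Artificial CD8, 78.6 to 109 CPM in CD4+CD8+ and 56.6 to 75.1 CPM in splenic CD8. Cst3 was the largest part of each sum, with 66.6 to 116 CPM in iRTE and 47.8 to 54.1 CPM in splenic CD8. Of the 6 tested myeloid markers, 3 rose and 2 fell in iRTE against splenic CD8. In Artificial CD8 3 rose and 1 fell, and in CD4+CD8+ 2 rose and 2 fell. Of all tested genes, 29.2% rose and 29.0% fell in iRTE against splenic CD8. The shares were 30.3% and 30.2% in Artificial CD8, and 28.9% and 27.4% in CD4+CD8+. Lyz2 had at most 0.171 CPM in iRTE, at most 2.19 CPM in Artificial CD8 and no count in CD4+CD8+. In splenic CD8 it had 1.502 to 10.3 CPM. Fcer1g ran the other way, with 1.81 to 8.54 CPM in iRTE and 0.372 to 0.952 CPM in splenic CD8.

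Stromal, epithelial and blood markers completed the check. The 12 stromal markers summed to 0.861 to 3.85 CPM in iRTE and 18.8 to 29.5 CPM in Artificial CD8. Their sums were 1.53 to 81.9 CPM in CD4+CD8+ and 2.35 to 4.02 CPM in splenic CD8. Most of the Artificial CD8 sum was Pdgfrb (14.7 to 23.8 CPM), while Col1a1, Sparc and Fn1 each had no count in 3 of its 5 libraries. In CD4+CD8+, Fn1 ran at 0 to 21.8 CPM and Cxcl12 at 0.170 to 18.2 CPM. The 10 thymic epithelial markers summed to 91.2 to 309 CPM in iRTE and 178 to 242 CPM in Artificial CD8. Their sums were 111 to 153 CPM in CD4+CD8+ and 123 to 160 CPM in splenic CD8. Ly75 was the largest part in every group, with 78.6 to 294 CPM in iRTE and 116 to 151 CPM in splenic CD8. Foxn1 and Krt14 were at 0 in all 18 libraries. The 7 erythroid genes summed to 0.243 to 1.75 CPM in iRTE, 1.11 to 2.72 CPM in Artificial CD8, 0.170 to 1.35 CPM in CD4+CD8+ and 178 to 232 CPM in splenic CD8. The 14 T-cell markers summed to 14245 to 16749 CPM in iRTE, 14503 to 15686 CPM in Artificial CD8, 16075 to 21413 CPM in CD4+CD8+ and 14333 to 16169 CPM in splenic CD8. The erythroid sums were highest in splenic CD8, and the T-cell sums overlapped between iRTE, Artificial CD8 and splenic CD8. Any relation of these sums to the members' levels was not tested.

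**Figure D5:**
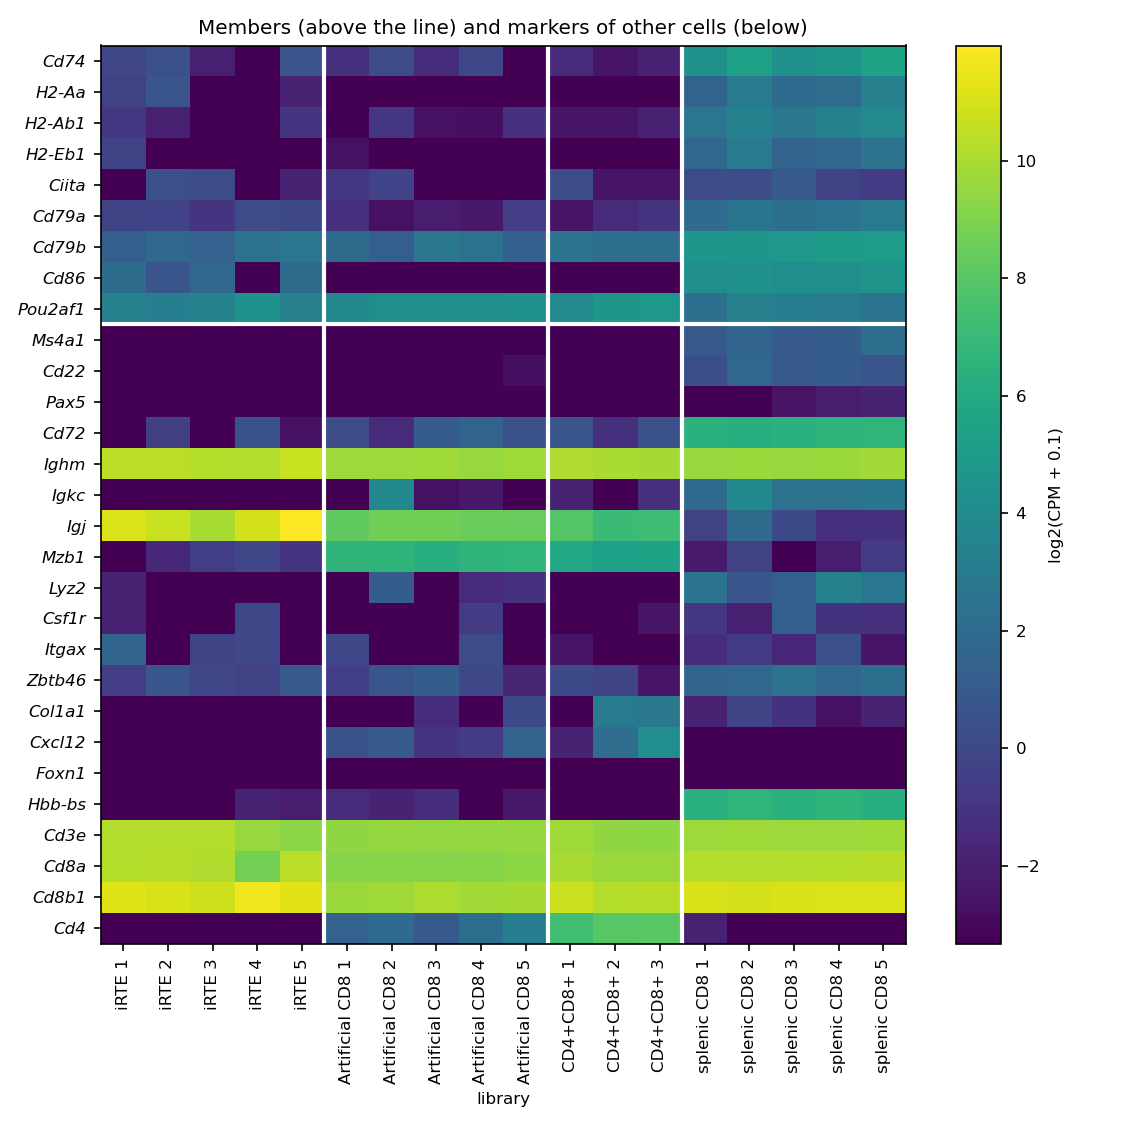
Rows are the 9 members (above the white line) and markers of other cells and of T cells (below it), columns are the 18 libraries in the order iRTE, Artificial CD8, CD4+CD8+ and splenic CD8, and colour is log2(CPM + 0.1). Ms4a1 and Pax5 are dark in every cultured library, Ighm is bright in all 18, and Hbb-bs and Cd72 are bright in splenic CD8.

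For each member, the genes most alike were taken as the 3 with the highest Pearson r of log2 CPM over the 18 libraries among 9752 genes. The libraries share their groups, so r is a description. Cd86 was most like Dhx58 (r = 0.976), Zbp1 (r = 0.975) and Psmb9 (r = 0.973). H2-Aa was most like Inpp5b (r = 0.968), Cd83 (r = 0.965) and Herc6 (r = 0.961), and H2-Eb1 most like Tmie (r = 0.969), Cd83 (r = 0.966) and Lims1 (r = 0.962). H2-Ab1 was most like Dennd2d (r = 0.969), Pcbp3 (r = 0.962) and Acp6 (r = 0.961), and Cd74 most like Trpm1 (r = 0.952), Trim56 (r = 0.946) and Rere (r = 0.946). Cd79a was most like Dlgap4 (r = 0.963), Unc13d (r = 0.956) and Taf4a (r = 0.951), and Cd79b most like Ubn2, Gga3 and Ccdc88c (r = 0.971 each). Pou2af1 was most like Kifc3 (r = 0.924), Nrp1 (r = 0.912) and Nccrp1 (r = 0.911). Ciita had no close neighbour: the highest was Zfp607 (r = 0.767), before Lrsam1 (r = 0.763) and Rgp1 (r = 0.752).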

How the data were processed

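RNA from 18 sorted samples was sequenced with standard Illumina libraries. The count values, whole numbers per gene symbol, were deposited by the authors, who per the submitters' processing notes aligned reads with STAR 2.4.2 to mm9 and counted them with Subread. Per the file headers, the alignments carried read groups and marked duplicates. No source used here gives the annotation or the strand setting. A further table of log2 values for the whole series was not used.

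Here, edgeR 4.0.16 in R 4.3.3 kept 13922 genes by its default filter, scaled by TMM and fitted all 18 libraries with a coefficient per group. The 6 comparisons used quasi-likelihood F tests with robust dispersions and Benjamini-Hochberg adjustment over all genes tested, at 0.05. Standard errors come from the variances of log2 CPM (prior count 2) inside each group. A fold against a group with no count is a bound at 3 counts in its shallowest library; bounds, floors and intervals cover counting error only. Replicates were not repeats of 1 library: chi-square over its degrees of freedom was 4.67 or more for every pair. The pipeline was tested on simulated data. DESeq2 1.42.0 and limma 3.58.1 (voom) served as alternatives, beside other scalings, filters, subsets and leaving out each library.

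The members and the 4 partner and 9 marker lists were chosen with earlier results of these data known. All members are named. From each partner list the text names at most 2 called genes with the smallest adjusted p in the direction with more calls, 1 in the other direction, and the direct partners H2-DMa, Rfx5, Pou2f1, Pou2f2, Cd80, Cd28 and Ctla4; others are named as markers or for their values. Genes most alike had at least 5 CPM in a group and were no members, predicted or clone-named genes. RefSeq promoter windows on GRCm38.p6 were searched for 4 of 9 members. No coordinate of the counted genes on mm9 was used. One marker is not reported here by name.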

Additional observations from a re-analysis of the deposited data

Results flagged for a closer look

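Each of 25 groups of 5 libraries was read for a library far from the others by Dixon's test. H2-Eb1 had 0.770 CPM in iRTE 1 and no count in the other 4 iRTE libraries. H2-Eb1 had 0.0618 CPM in Artificial CD8 1, which is 1 count, and none in the other 4. With 4 libraries at 0 any single count meets this test, so the H2-Eb1 values are given as values only. Pou2af1 had 23.4 CPM in iRTE 4, where the next highest iRTE library had 11.1 CPM and the lowest 9.39 CPM; the values without iRTE 4 are given with the Pou2af1 results. Chance alone marks about 1 in 20 groups of measured values without such ties.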

How the results depend on the processing

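Across all settings, 910 of 960 log2 fold changes kept their direction and their side of the threshold, 21 newly passed, 4 no longer passed and 25 changed sign. Of 234 counts of calls, 215 stayed within 1.5 times. Members called in iRTE against CD4+CD8+ were 1, but 2 with library size scaling, with a filter at 10 CPM and with the replicate block, and 3 with DESeq2 and with iRTE 1 to 3 alone. Members called in iRTE against Artificial CD8 were 3, but 1 with the 10 CPM filter, 5 with iRTE 1 to 3 alone and 0 in a fit of the groups alone, where only 3 members were tested. The 10 CPM filter left 5 members tested, and 5 were called in each comparison with splenic CD8. In fits of the groups alone, 1068 genes (993 with no filter) and not 3367 were called in iRTE against CD4+CD8+, and 3362 (3214 with no filter) and not 2041 in Artificial CD8 against CD4+CD8+. Leaving out each library gave 1 to 4 members in iRTE against CD4+CD8+ and 1316 to 1773 genes in Artificial CD8 against CD4+CD8+. The cause was not tested.

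Changes of sign fell among differences that passed no threshold. Cd79b in iRTE against Artificial CD8 was -0.059 with library size scaling and -0.36 with iRTE 1 to 3 alone. With limma-voom, H2-Ab1 was -0.068 in iRTE and -0.23 in Artificial CD8 against CD4+CD8+, and Ciita was -0.30 in iRTE against CD4+CD8+. With iRTE 4 and 5 alone, Ciita in iRTE was -1.19 against Artificial CD8 and -2.06 against CD4+CD8+, and Cd79b was 0.25 against CD4+CD8+. Leaving out each library, Ciita ranged between -1.98 and 1.38 in Artificial CD8 and between -0.39 and 2.55 in iRTE against CD4+CD8+. Cd79a ranged between -0.74 and 0.45, and H2-Ab1 between -0.033 and 0.93, in Artificial CD8 against CD4+CD8+. In iRTE against Artificial CD8, H2-Ab1 ranged between -0.21 and 0.86 and Cd79b between -0.14 and 0.29.

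The groups share replicate numbers, but deviations of same-numbered libraries correlated at only -0.07 to 0.06, so the numbers were not taken to pair the samples. With the replicate block, called genes numbered 5144, 7958, 8350, 2998, 1821 and 7326 in iRTE against Artificial CD8, iRTE and Artificial CD8 against splenic CD8, iRTE and Artificial CD8 against CD4+CD8+, and CD4+CD8+ against splenic CD8. The one member call it changed was Pou2af1 in iRTE against CD4+CD8+ (-0.87, edgeR adjusted p = 0.0292). Depth limits the class II chains in culture, where single counts decide a value.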

Other observations

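Among the plasma-cell markers, Igj was higher in every cultured group than in splenic CD8, while the others were low in iRTE. The B-cell markers Ms4a1 and Pax5 had no count in the cultures, but Pax5 had only 5 counts over all splenic libraries. Igj, the joining chain of secreted antibodies, ran at 989 to 3986 CPM in iRTE, 295 to 423 CPM in Artificial CD8, 136 to 232 CPM in CD4+CD8+ and 0.317 to 3.76 CPM in splenic CD8. It was higher in iRTE than in Artificial CD8 by 2.67 ± 0.31 (edgeR adjusted p = 1.22e-05) and than in splenic CD8 by 10.97 ± 0.63 (1.37e-11). Mzb1, a chaperone of plasma and marginal zone B cells, had another pattern, with 0 to 0.847 CPM in iRTE, 80.1 to 103 CPM in Artificial CD8, 43.5 to 55.2 CPM in CD4+CD8+ and 0 to 0.676 CPM in splenic CD8. The difference of iRTE from Artificial CD8 was -7.61 ± 0.51 (edgeR adjusted p = 2.48e-10). The 5 plasma-cell markers summed to 990 to 3987 CPM in iRTE, nearly all of it Igj, and to 399 to 508 CPM in Artificial CD8. Their sums were 182 to 289 CPM in CD4+CD8+ and 1.33 to 4.58 CPM in splenic CD8. In iRTE, Sdc1 had at most 0.544 CPM and Prdm1 at most 2.99 CPM. Tnfrsf17 was at 0 in all iRTE, CD4+CD8+ and splenic CD8 libraries.

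The heavy chain constant gene Ighm ran at 1194 to 1635 CPM in iRTE, 765 to 896 CPM in Artificial CD8, 972 to 1147 CPM in CD4+CD8+ and 772 to 925 CPM in splenic CD8. It was higher in iRTE than in splenic CD8 by 0.89 ± 0.09 (edgeR adjusted p = 2.56e-07), with no overlap of libraries. The light chain gene Igkc had no count in iRTE, 0, 14.04, 0.0601, 0.104 and 0 CPM in Artificial CD8 1 to 5, at most 0.328 CPM in CD4+CD8+, and 3.62 to 13.9 CPM in splenic CD8.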
